A study of Homo sapiens with 2 samples.

Results

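The genes described here are 52 genes of chromosome 9q33-q34, a stretch of the long arm that runs from RABGAP1 to TSC1. They were selected on measured values, since genes of these bands had shown higher signals in HL cells after knock-down of PRAME on the same arrays that are analyzed here. The shift of the genes is therefore a description and no test of it is given. Of the 52 genes, 51 were measured among 19775 genes that had a probe set with 1 gene symbol. The remaining gene, RABEPK, was not analyzed here. A filter on low signals was passed by 50 of the 51 genes and by 11794 genes in all, and the gene below the filter was ENG.

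RNA came from L-428 cells, an established Hodgkin lymphoma (HL) cell line. The control cells carried pcDNA6.2-GW/EmGFP-miR-neg, a control vector that the authors call empty. The knock-down cells carried pcDNA6.2-GW/EmGFP-miR-PRAME, from which an artificial microRNA against the tumor antigen PRAME is made. Both were stable transfectants selected with blasticidin, and 1 array of the HG_U133PLUS2.0 type was hybridized for each condition. With 1 culture each, the effect of the knock-down and any other difference between both cultures cannot be told apart, and no error between replicates exists. The series as a whole is described with L-540 cells and another array type, but both sample labels name L-428 and the table holds the 54675 probe sets of HG_U133PLUS2.0.

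Genes that lie side by side on a human chromosome mostly have unrelated functions, and the genes from 9q33-q34 range from regulators of small GTPases to enzymes of sugar and amino acid metabolism. What such neighbors can have in common is the copy number and the chromatin of their chromosome segment. The arrays measured RNA only. In hematology the band 9q34 is best known for ABL1, the kinase gene that is joined to BCR in chronic myeloid leukemia, and for SET and NUP214, which also take part in leukemia fusions.

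PRAME itself had a signal of 2115 with the empty vector and 1251 after knock-down, a log2 ratio of -0.80. All log2 ratios are given as knock-down over control cells, centered on the median of the probe sets above the filter. The deposited signals of both arrays had been scaled to one level, with a mean of 500.1 without the highest and lowest 2% of probe sets. The median signal was 91.9 on the control array and 109.9 on the knock-down array, and the ratios of 3' to 5' signal were 0.948 and 1.04 for GAPDH. The 8 marker genes of Hodgkin and Reed-Sternberg cells were all above the filter, with signals from 1177 to 11028 on the control array and from 782 to 11799 on the other. All 5 markers of T cells and all 3 markers of monocytes were below the filter, and of 6 measured B cell markers 4 were above it, with a highest signal of 332. The 3 fibroblast markers were above the filter and did not differ in 1 direction, with signals of 1199 and 790 for COL1A1, 53.4 and 184 for COL1A2 and 194 and 202 for DCN. Their summed signal of 1446 with the empty vector and 1176 after knock-down mainly reflects COL1A1. The part of other cells in the values below was not tested. In RNA from whole cultures, fewer cells of a type and less RNA per cell cannot be told apart.

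The 51 measured genes of 9q33-q34 had a median log2 ratio of 0.15, compared with 0.078 for all 19775 genes. For the 50 genes above the filter the median was 0.16, compared with -0.0069 for the 11794 genes above it. A ratio above 0 was found for 36 of the 51 genes and, without a filter, for 56.7% of all genes. Above the filter it was found for 36 of 50 genes and for 49.0% of all genes. At least 1.5-fold higher were 5 genes of 9q33-q34, which is 9.80% of the 51 measured genes (20.6% of all measured genes) and 10% of the 50 above the filter (7.54% of all genes above it). These 5 were ASS1, GOLGA2, ZER1, USP20 and DOLK. At least 1.2-fold higher were 21 of 50 genes (22.2% of all genes above the filter) and at least 1.2-fold lower were 3 of 50 (22.3%). At least 1.5-fold lower was 1 of 50, POMT1, where 5.42% of all genes above the filter were. More of the genes thus lay above 0 than of all genes, while the share with at least 1.2-fold higher signals was 42% and that with at least 1.5-fold higher signals was near the share of all genes above the filter.

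The order of the genes on the chromosome showed where the higher values lay. From RABGAP1 to ASS1, 32 of 38 genes above the filter had ratios above 0, and their median was 0.32, a 1.25-fold higher signal. The middle of their distribution ran from 0.095 to 0.48. Of all genes above the filter, 49.0% had ratios above 0, and the median was -0.0069. At least 1.2-fold higher were 22.2% of these and at least 1.2-fold lower were 22.3%. From FUBP3, the next gene of the list, to TSC1, 4 of 12 genes had ratios above 0, and the median was -0.12. All 21 genes that were at least 1.2-fold higher lay between RABGAP1 and ASS1, and the 3 that were at least 1.2-fold lower, FUBP3, POMT1 and DDX31, lay between FUBP3 and TSC1. The name under which these genes were grouped, a shift to higher signals, therefore describes the first stretch and not the last 12 genes. The border at FUBP3 was chosen after the values were seen, so the difference between both stretches was not tested.

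**Figure D1:**
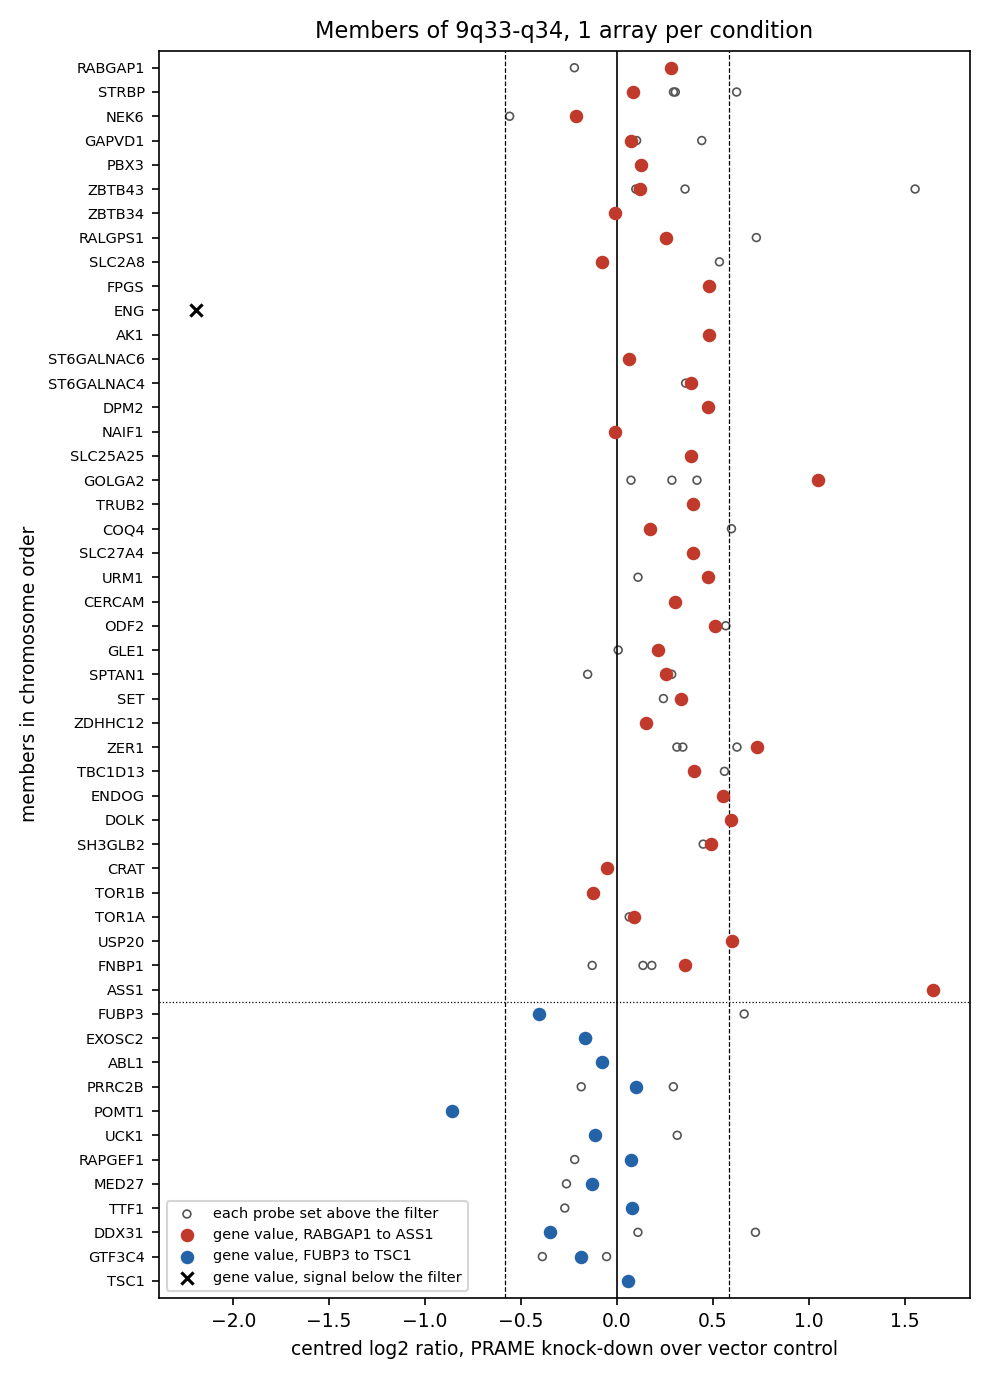
Centered log2 ratio (knock-down over control, x axis) of the 51 measured genes in their order on chromosome 9, with filled points for the gene value, open points for each further probe set above the filter, a cross for ENG (below the filter) and dashed lines at 1.5-fold. The red points from RABGAP1 to ASS1 lie mostly right of 0 (32 of 38 above the filter), and the blue points from FUBP3 to TSC1 lie around or left of it (4 of 12 above 0).

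In the plot of the genes in chromosome order, both ends of the distribution stand in different stretches. The highest and the lowest value were those of ASS1 and, above the filter, POMT1. ASS1 encodes argininosuccinate synthase, the enzyme of the urea cycle and of arginine synthesis that joins citrulline and aspartate. It had a signal of 3864 on the control array and 12481 on the knock-down array, which is 3.13-fold higher (log2 ratio 1.65). GOLGA2, the gene of the cis-Golgi matrix protein GM130, was second with signals of 524 and 1115 (2.06-fold, 1.05). At the low end, POMT1, a protein O-mannosyltransferase of the endoplasmic reticulum, had signals of 400 and 227 and was 1.81-fold lower (-0.86). FUBP3, a single-strand DNA-binding protein related to an activator of MYC, followed with 1759 and 1370 (-0.41). ASS1 and FUBP3 are neighbors in the list, so the highest value and the second lowest value above the filter stood side by side.

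The DNA before the start sites of these 4 genes is shown because they are the 2 highest and the 2 lowest listed genes above the filter, and the sequence at the start site is one of the features in which they can be compared. The sequences are the 250 bases upstream of the first start site listed for the gene in RefSeq (GRCh38.p14), written 5' to 3' on the strand of the gene. Capitals mark the GC box (GGGCGG, which reads CCGCCC on the other strand), the half-site of nuclear receptors (AGGTCA, on the other strand TGACCT) and the TATA box (TATAAA, on the other strand TTTATA), and no 2 of these overlap in the windows shown. The windows are chr9:130444457-130444706 (plus strand) for ASS1, chr9:128276008-128276257 (minus strand) for GOLGA2, chr9:131502668-131502917 (plus strand) for POMT1 and chr9:130579327-130579576 (plus strand) for FUBP3.
ASS1: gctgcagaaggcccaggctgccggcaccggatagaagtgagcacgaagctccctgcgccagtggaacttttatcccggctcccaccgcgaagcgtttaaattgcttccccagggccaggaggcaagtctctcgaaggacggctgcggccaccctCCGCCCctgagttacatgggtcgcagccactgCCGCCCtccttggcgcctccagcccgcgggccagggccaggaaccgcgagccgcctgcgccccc
GOLGA2: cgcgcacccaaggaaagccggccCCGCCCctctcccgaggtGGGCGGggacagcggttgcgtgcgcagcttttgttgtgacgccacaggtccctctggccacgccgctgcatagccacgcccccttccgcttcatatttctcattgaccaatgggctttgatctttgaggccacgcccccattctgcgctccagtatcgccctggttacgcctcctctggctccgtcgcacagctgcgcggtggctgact
POMT1: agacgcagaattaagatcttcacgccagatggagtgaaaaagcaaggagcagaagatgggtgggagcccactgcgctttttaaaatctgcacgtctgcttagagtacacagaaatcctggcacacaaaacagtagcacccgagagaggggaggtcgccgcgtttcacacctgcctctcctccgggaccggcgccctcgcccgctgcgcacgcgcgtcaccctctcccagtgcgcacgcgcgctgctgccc
FUBP3: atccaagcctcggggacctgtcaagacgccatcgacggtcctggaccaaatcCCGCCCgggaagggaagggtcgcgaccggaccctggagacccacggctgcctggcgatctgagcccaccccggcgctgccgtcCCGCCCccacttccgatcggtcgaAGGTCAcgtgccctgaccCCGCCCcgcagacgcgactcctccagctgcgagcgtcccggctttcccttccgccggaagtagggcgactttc

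The windows of ASS1 and GOLGA2 each held 2 GC boxes, that of FUBP3 held 3 and that of POMT1 held none. FUBP3 had the only half-site among the 4 windows, and none of them held the TATA box. The share of G and C was 68.4% for ASS1, 64.8% for GOLGA2, 60% for POMT1 and 69.6% for FUBP3. A window was found for 44 of the measured genes of 9q33-q34. Among these, 32 held a GC box (72.7%), compared with 56.3% of the windows of 15384 measured genes and 42.3% of all 27305 windows. The measured genes were not filtered on signal here, whereas nearly all listed genes were above the filter. The median share of G and C was 69% in the listed windows and 62.4% in those of measured genes. Its part in the counts of GC boxes was not tested. A half-site was found in 5 of 44 (11.4%), in 10.1% of the windows of measured genes and in 12.1% of all windows. The TATA box was found in 3 of 44 (6.82%), in 8.31% of the windows of measured genes and in 11.1% of all. The GC box stood in 25 of 32 windows of genes before FUBP3 and in 7 of 12 from FUBP3 on, and the half-site in 4 and 1. The letters are a description of the windows, and no binding was measured.

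Regulators of small GTPases and of membrane traffic were all above 0, with a median of 0.32 for 8 genes. Of all genes 56.7% were above 0, and 49.0% of those above the filter, which applies to the counts of every functional group. Because the genes were selected on these values, such counts are not results about functions. RABGAP1, an activator of GTP hydrolysis by Rab proteins, had a control signal of 3037 and a knock-down signal of 3803 (0.28), the order in which all pairs of signals are given. GAPVD1, which acts on RAB5 in endocytosis, had 2083 and 2259 (0.072). RALGPS1, an exchange factor for Ral, had 238 and 293 (0.26). The ratios were somewhat higher for TBC1D13, a Rab GTPase-activating protein, with 624 and 850.0 (0.40), for the endophilin SH3GLB2 with 218 and 316 (0.49) and for FNBP1, a membrane-bending F-BAR protein, with 10555 and 13899 (0.35). RAPGEF1, an exchange factor for RAP1, was the only one of these genes beyond FUBP3 and had 1440 and 1564 (0.074). The 8 genes thus spanned signals from about the level of RALGPS1 to that of FNBP1, and GOLGA2 alone was more than 1.5-fold higher.

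Some of these values depended on the choice of probe set. The 4 probe sets of GOLGA2 had log2 ratios of 1.05, 0.29, 0.073 and 0.42, all above 0, and the median over them was 0.35. Of GAPVD1, 3 probe sets above the filter had values from 0.072 to 0.44, and a dimmer set below the filter, with signals of 121 and 38.4, gave -1.71. RAPGEF1 likewise had a second set above the filter with -0.22 and a set below it with -1.52. GORASP1, the Golgi protein that GM130 binds, lies on chromosome 3 and had signals of 620 and 500 (-0.36). For FNBP1, 3 of 4 probe sets were above 0 and the lowest was -0.13. Of its relatives on other chromosomes, FNBP1L had 0.32 and TRIP10 had -0.80, with signals of 1814 and 1077 for the latter. For RABGAP1, a second set above the filter, with signals of 1799 and 1592, gave -0.22, and the median over its probe sets was -0.0038. RABGAP1L, the relative of RABGAP1 on chromosome 1, had 0.20.

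Genes of the cytoskeleton and of protein modification were likewise all above 0, with a median of 0.51 for 5 genes, and all of them lay before FUBP3. ZER1, a substrate receptor of a CUL2 ubiquitin ligase, had signals of 408 and 698 (1.66-fold, 0.73). All of its 4 probe sets were above 0, with values from 0.31 to 0.73. USP20, a deubiquitinase, had 293 and 459 (1.52-fold, 0.60). ODF2, a protein of the centriole and the sperm tail, had 2360 and 3476 (0.51), and its second probe set gave 0.57. SPTAN1, the alpha chain of non-erythroid spectrin, had 1126 and 1387 (0.26), while another of its 3 probe sets above the filter gave -0.15. ZDHHC12, a palmitoyltransferase, had 443 and 508 (0.15). Their relatives and partners elsewhere in the genome were near or below 0. ZYG11B, the relative of ZER1, had -0.12, USP33, the relative of USP20, had -0.12, and the spectrin beta chain SPTBN1 had -0.14.

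Genes of metabolism, mitochondria and transport had a median of 0.39, and 7 of 10 were above 0. After ASS1 the highest was ENDOG, a mitochondrial nuclease, with signals of 237 and 358 (0.55). FPGS, which adds glutamate residues to folates and antifolates, had 466 and 669 (0.48). AK1, an adenylate kinase, had 208 and 299 (0.48). The fatty acid transporter SLC27A4 had 341 and 462 (0.39), and the mitochondrial ATP-magnesium and phosphate carrier SLC25A25 had 196 and 265 (0.39). COQ4, needed for the synthesis of coenzyme Q, had 577 and 672 (0.17), and its second probe set gave 0.60. Values below 0 were those of SLC2A8, a glucose transporter of intracellular membranes, with 193 and 189 (-0.079), of the carnitine acetyltransferase CRAT with 226.5 and 225.6 (-0.051) and of the uridine-cytidine kinase UCK1 with 565 and 539 (-0.11). SLC2A8 and UCK1 had a second probe set of the opposite sign (0.53 and 0.31). UCK1 was the only gene of this group beyond FUBP3.

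ASS1 exceeded the second highest gene of this group by a wide margin, although it rests on 1 probe set. The ending of its name, _s_at, marks possible matches to several transcripts, and ASS1 has processed pseudogenes, so its reading is uncertain. ASL, the next enzyme of the urea cycle, lies on chromosome 7 and had signals of 260 and 251 (-0.098). Enzymes that work with COQ4 went both ways, from COQ3 with -0.63 and COQ2 with -0.51 to COQ7 with 0.14. The carnitine palmitoyltransferases CPT1A and CPT2 had -0.53 and -0.32. EXOG, the relative of ENDOG, had -0.31, and the folate hydrolase GGH had 0.090. The glucose transporter SLC2A1 on chromosome 1 was higher, with signals of 252 and 442 (0.77).

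**Figure D2:**
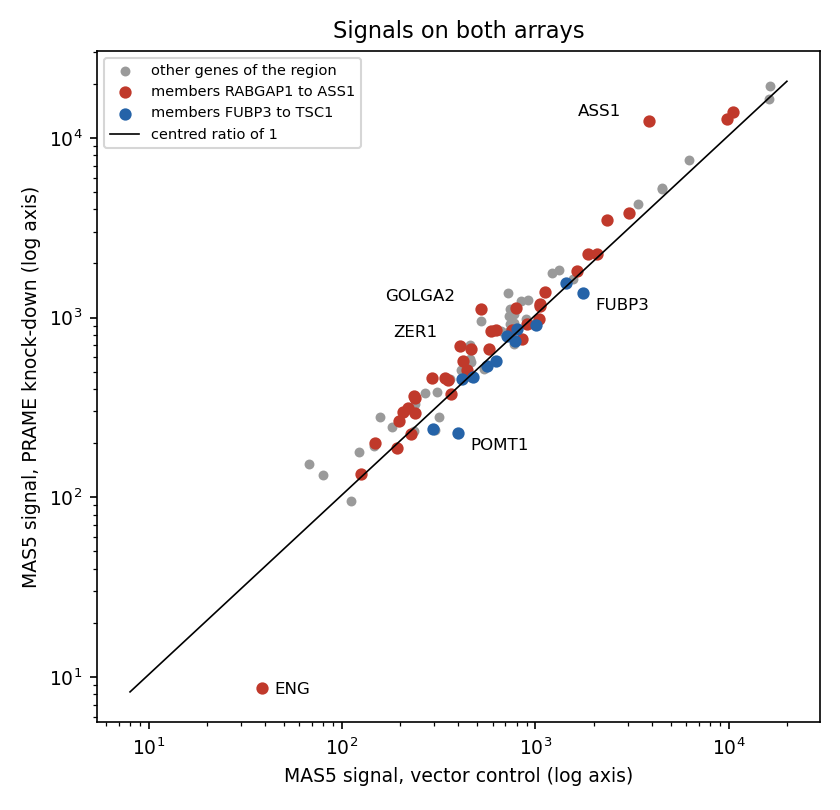
MAS5 signal in knock-down cells (y axis, log scale) against control cells (x axis, log scale) for the genes of 9q33-q34 (red before FUBP3, blue from FUBP3) and the other genes above the filter between RABGAP1 and TSC1 (gray), with a line at a centered ratio of 1. ASS1 (3864 and 12481) lies farthest above the line, POMT1 (400 and 227) below it, and ENG (38.6 and 8.70) is the only gene of the list below the filter.

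In the plot of both signals, most genes before FUBP3 lie above the line, and 7 of 39 lie below it (NEK6, ZBTB34, SLC2A8, ENG, NAIF1, CRAT and TOR1B). For genes with signals between the 50th and the 75th percentile, the median was 0.39 for the 15 genes before FUBP3 and 0.13 for all genes. For genes with higher signals it was 0.28 for 23 genes and -0.059 for all genes. In both ranges the median of the genes before FUBP3 was above that of all genes. The medians of the genes from FUBP3 on were -0.21 (4 genes) and -0.12 (8 genes) in the same ranges.

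Genes of glycosylation and of the endoplasmic reticulum had a median of 0.19, with 6 of 8 above 0. DOLK, the kinase that makes dolichol phosphate, had signals of 234 and 366 (1.51-fold, 0.60). DPM2, a subunit of the synthase that puts mannose on dolichol phosphate, had 587 and 840 (0.47). Its other subunits, on other chromosomes, differed in direction, with -0.42 for the catalytic DPM1 (9204 and 7121) and 0.38 for DPM3. The sialyltransferases ST6GALNAC4 and ST6GALNAC6 had 147 and 199 (0.39) and 125 and 135 (0.064). CERCAM, a protein similar to collagen galactosyltransferases, had 354 and 451 (0.30). The torsin ATPases TOR1A and TOR1B, which lie next to each other, had 1648 and 1805 (0.086) and 1040 and 985 (-0.12). POMT1, which uses the mannose that DPM synthase supplies, was the only gene of this group beyond FUBP3. Its partner POMT2 on chromosome 14 had 329 and 257 (-0.40).

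Genes of RNA processing and translation had a median of 0.10, and 5 of 7 were above 0. The 4 before FUBP3 were all above 0. TRUB2, a pseudouridine synthase of mitochondrial RNA, had signals of 423 and 575 (0.40). URM1, a ubiquitin-like sulfur carrier for the thiolation of transfer RNA, had 790.2 and 1132 (0.47), while CTU2, a subunit of the thiolase that takes up this sulfur, had -0.48. GLE1, a factor of messenger RNA export, had 1878 and 2245 (0.21), and its other probe set above the filter gave 0.0063. STRBP, an RNA-binding protein first found in spermatids, had 1059 and 1159 (0.085), and its other probe sets above the filter gave 0.29 to 0.62. Beyond FUBP3, EXOSC2, a subunit of the RNA exosome, had 626 and 575 (-0.17), and the other measured exosome subunits ranged from -0.34 (EXOSC9) to 0.17 (EXOSC7). PRRC2B had 715 and 792 (0.10). The helicase DDX31 had 295 and 239 (-0.35), but its other probe sets gave 0.11 and 0.72.

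Transcription and chromatin genes were on both sides of 0, with a median of -0.0080 and 4 of 9 above 0. SET, a histone chaperone and inhibitor of protein phosphatase PP2A, had signals of 9813 and 12773 (0.34), and its second probe set gave 0.24. Both sets can match near-identical copies of SET elsewhere in the genome, so this value is uncertain. PBX3, a homeobox partner of HOX proteins, had 757 and 852 (0.13). The zinc finger genes ZBTB43 and ZBTB34 had 1056 and 1186 (0.12) and 899.9 and 923 (-0.0080). For ZBTB43 all 5 probe sets were above 0, from 0.098 to 1.55. NAIF1, a nuclear regulator of apoptosis, had 366 and 375 (-0.011). Beyond FUBP3, the Mediator subunit MED27 had 788 and 743 (-0.13), TTF1, a termination factor of RNA polymerase I, had 417 and 454 (0.077), and GTF3C4, a subunit of the RNA polymerase III factor TFIIIC, had 1004 and 911 (-0.19). The other TFIIIC subunits measured on other chromosomes ranged from -0.11 (GTF3C3) to 0.24 (GTF3C2).

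Kinases and signaling genes were the group with the lowest median, -0.15 for 4 genes, of which 1 was above 0. Of these 4 genes, ABL1 and TSC1 lie beyond FUBP3 and ENG was below the filter. NEK6, a kinase of mitosis, had signals of 852 and 758 (-0.21). All 3 of its probe sets above the filter were below 0, from -0.56 to -0.21. It was the only gene before FUBP3 that had several probe sets above the filter and all of these below 0. ENG, a coreceptor for transforming growth factor beta, had 38.6 and 8.70, both below the filter signal of 97.7. Its log2 ratio of -2.19 is therefore poorly determined, and with an offset of 64 added to both signals it was -0.54. ABL1 had 477 and 466 (-0.080), and its relative ABL2 had -0.35. TSC1, which with TSC2 restrains mTOR signaling, had 801 and 861 (0.059), and its complex partners TSC2 and TBC1D7 had 0.19 and 0.090.

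Different probe sets of a gene give a second look at the same RNA, although not at another culture. They were read on the same arrays on which the genes were selected. Their agreement is therefore a description and no independent test of the shift. The pooled SD between probe sets of a gene was 0.33 on the log2 scale over 5840 genes, so that a single ratio of the size of the median of the first stretch is within this spread. Before FUBP3, 20 genes had several probe sets above the filter. All were above 0 for 15 of these genes, all were below 0 for 1 and the signs were mixed for 4 (RABGAP1, SLC2A8, SPTAN1 and FNBP1). The 34 probe sets that did not serve as the gene value had a median of 0.29, and 29 of them were above 0. From FUBP3 on, 9 genes had several probe sets above the filter. For none of them were all above 0, for 3 (EXOSC2, MED27 and GTF3C4) all were below 0, and for 6 the signs were mixed. The 12 further probe sets there had a median of -0.10, and 5 were above 0. Agreement of probe sets was not counted over all genes, so how unusual these counts are cannot be read. For FUBP3 itself the second probe set gave 0.66, so its place among the lowest genes rests on the brighter set.

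The genes that lie between the 52 but are not among them were examined next. They belong to the same bands and were read on the same arrays on which the list was selected. Their values are therefore a description and no independent test of the shift. Between RABGAP1 and FUBP3, 40 further genes were above the filter. Their median was 0.29, 33 of them were above 0, and 24 were at least 1.2-fold higher (background 22.2%). With the genes of the list this made 65 of 78 genes above 0 (83.3%, and 49.0% of all genes above the filter). Between FUBP3 and TSC1, only 4 further genes were above the filter, with values of 1.14 for FAM78A, 0.69 for LAMC3, -0.070 for SPACA9 and -0.099 for NUP214. FAM78A (67.2 and 153) and LAMC3 (79.5 and 132) had a signal below the filter in the control cells. All 16 genes from FUBP3 to TSC1 had a median of -0.090, and 6 were above 0. On these arrays the shift was not confined to the listed genes, and the list does not stand apart from its neighbors.

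Among these further genes of the whole region, the highest after FAM78A were SCAI, a cofactor that represses transcription by MRTF, with signals of 726 and 1365 (0.87), EEIG1 with 525 and 959 (0.82) and MIGA2, a protein of mitochondrial fusion, with 157 and 279 (0.78). The lowest were PTGES2, a prostaglandin E synthase, with 302 and 238 (-0.39), LOC100272217 (-0.27), MVB12B, a subunit of the ESCRT-I complex (-0.21), CDK9, the kinase of the elongation factor P-TEFb (-0.18), and LRRC8A, a subunit of volume-regulated anion channels (-0.10). All 5 of the lowest lay before FUBP3, so the first stretch also held genes well below its median.

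**Figure D3:**
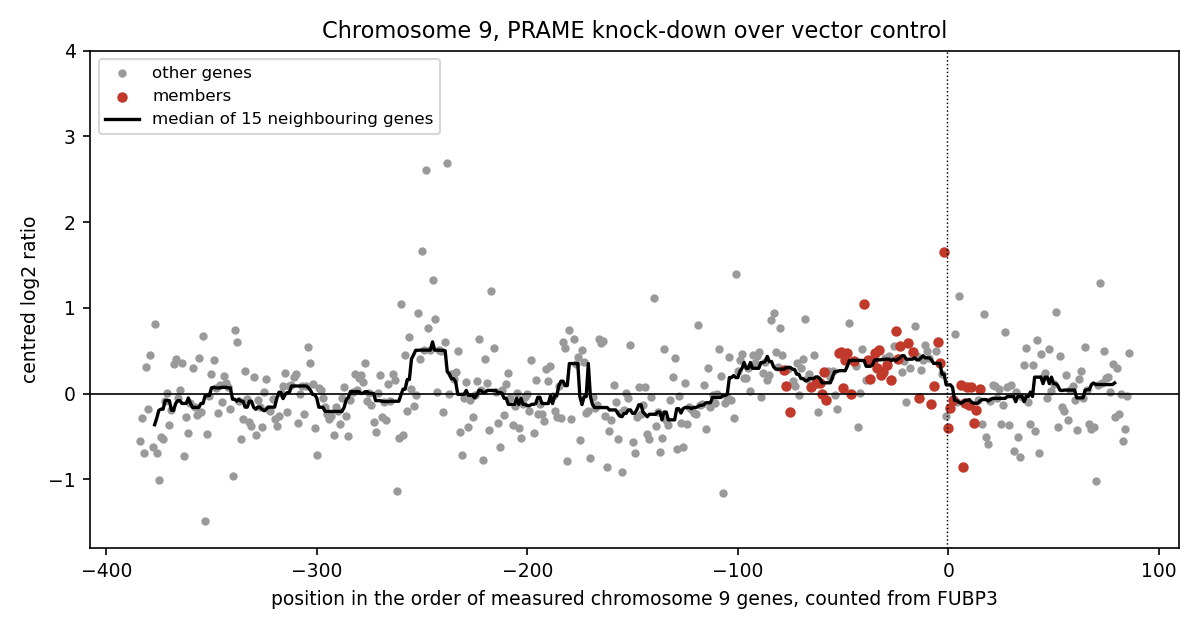
Centered log2 ratio (y axis) of the 471 genes of chromosome 9 above the filter in chromosome order, counted from FUBP3 (x axis, place of the gene and not distance in bases), with listed genes in red and the median of 15 neighboring genes as a line. The line stays above 0 for 107 genes from TNC to ABL1, just beyond FUBP3, and reaches -0.11 between FUBP3 and TSC1, and it is higher still around KLF9 (0.60), far from the listed genes.

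The profile of chromosome 9 showed that the higher stretch began before RABGAP1. The 25 measured genes before RABGAP1 had a median of 0.36, and 22 of them were above 0 (49.0% of all genes above the filter). Next to the first gene of the list lay ZBTB26 with 0.45, ZBTB6 with 0.77 and RC3H2, a ubiquitin ligase that binds messenger RNA, with 0.31. The 25 genes after TSC1 had a median of -0.056, and 11 were above 0. The first of these were GTF3C5 with -0.35, CEL with 0.92 (from a control signal of 76.7, below the filter) and RALGDS with -0.51. A running median of 15 genes stayed above 0 from TNC to ABL1, over 107 genes of which 26 lay before RABGAP1. Between RABGAP1 and FUBP3 it ranged from 0.10 to 0.44, with its highest value at SPOUT1, KYAT1 and NTMT1. Between FUBP3 and TSC1 it ranged from -0.11 to 0.10, was 0.10 at FUBP3 and EXOSC2 and 0.074 at ABL1, and was first below 0 at LAMC3. Each such median covers neighbors on both sides, so it does not place the border at 1 gene.

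The rest of the chromosome did not follow. The 306 genes before RABGAP1 had a median of -0.038 and the 71 genes after TSC1 one of 0.018. For all 471 genes of chromosome 9 the median was 0.035, and the medians of the autosomes and chromosome X ranged from -0.31 on chromosome 18 to 0.088 on chromosome 14. The stretch with RABGAP1 and ASS1 was not the highest of chromosome 9. Around KLF9, on the same arm but closer to the centromere, the running median reached 0.60, where ratios of 2.61 for APBA1 and 1.33 for KLF9 were found.

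Paralogs, complex partners and pathway partners of the listed genes were compared last. Of 73 such genes, 65 were measured, and 64 of these lay on other chromosomes. Above the filter, the 62 partners on other chromosomes had a median of -0.079 and 28 of them were above 0 (45.2%, and 49.0% of all genes above the filter). At least 1.2-fold higher were 7 (11.3%, and 22.2% of all genes above the filter). At least 1.2-fold lower were 14, where 22.3% of all genes above the filter were. The 38 partners of genes before FUBP3 had a median of -0.098 with 16 above 0, whereas the 38 listed genes of that stretch had 32 above 0. The 23 partners of genes from FUBP3 on had a median of 0.0058 with 12 above 0. At least 1.5-fold higher was SLC2A1 (7.54% of all genes above the filter), and at least 1.5-fold lower were COQ3 and TRIP10 (5.42%). The partners thus lay around 0 together with most genes of the arrays, while the listed genes between RABGAP1 and ASS1 lay above it. The listed genes were selected on these same arrays, and their border was chosen after the values were seen. This contrast was therefore partly fixed in advance, and it was not tested. The partners also had higher signals, with a median of the mean log2 signal of 10.3, compared with 9.37 for the 38 listed genes. The median ratio of all genes was 0.13 between the 50th and the 75th percentile of the signal and -0.059 above it. The part of the signal level in this contrast was not tested.

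**Figure D4:**
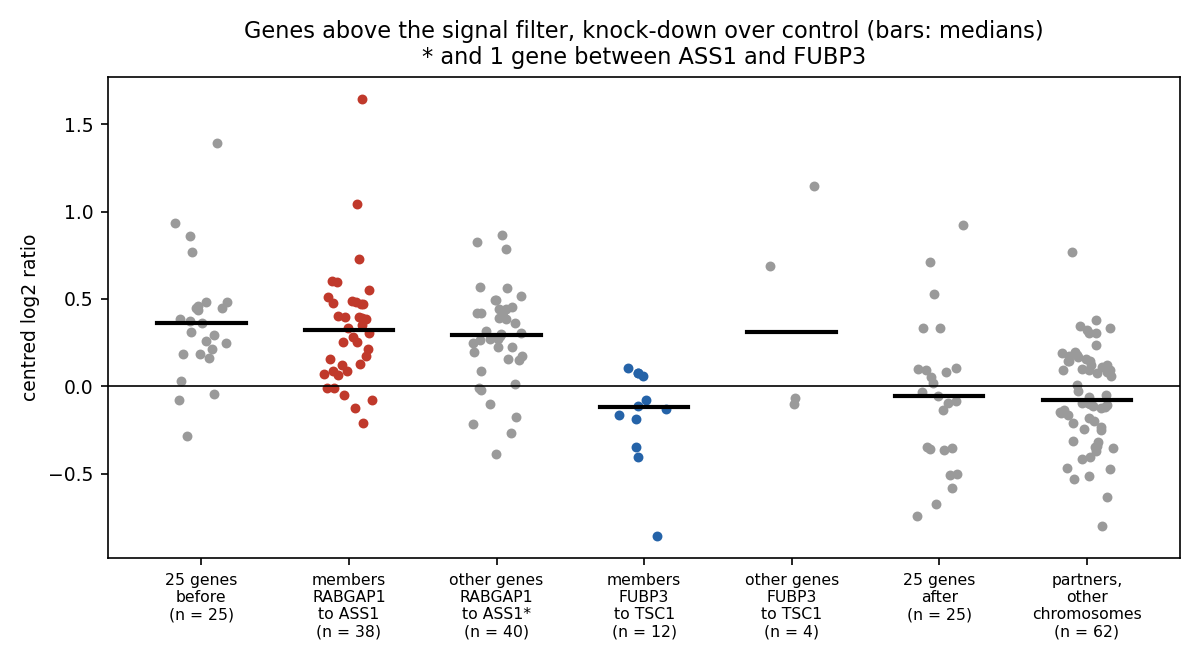
Centered log2 ratio (y axis) of single genes above the filter in 7 sets (x axis, n below each), with a bar at each median. The listed genes from RABGAP1 to ASS1 (median 0.32), the other genes of that stretch (0.29) and the 25 genes before it (0.36) lie mostly above 0, whereas the listed genes from FUBP3 to TSC1 (-0.12), the 25 genes after them (-0.056) and the partners on other chromosomes (-0.079) lie around or below 0.

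The plot of the sets places these groups side by side. The 3 sets that end before FUBP3 had similar medians and overlapped over most of their range. The listed genes from FUBP3 on reached no higher than 0.10 and overlapped only with the lower part of that range. The 25 genes after TSC1 and the partners on other chromosomes had lower medians but also reached its upper part. Their highest values were 0.92 (CEL) and 0.77 (SLC2A1). The other genes from FUBP3 to TSC1 reached 1.14 (FAM78A) and are too few for a median to be read. No test was performed for any of these comparisons, because each condition was measured on 1 array.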

How the data were processed

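Total RNA of L-428 control and PRAME knock-down cells was hybridized to 1 HG_U133PLUS2.0 array per condition. The authors deposited linear MAS5 intensities, made with Affymetrix Expression Console 1.1 per the submitters' processing notes. Detection calls were not used, and the sources used here give no hybridization batches. Control probe sets (62) were left out. Log2 ratios without an offset were centered on the median of the 27307 probe sets whose mean log2 signal reached the median (97.7 on the linear scale), by subtracting 0.045. The platform annotation left 11777 probe sets without a symbol and gave several to 1801 and exactly 1 to 41097, of which 41043 matched RefSeq by gene ID. It names no genome build, so the RefSeq table of GRCh38.p14 served only for names, chromosome and gene order, and the promoter windows came from RefSeq with that build. ASS1 has more than 1 start site in this table, and the first was used. A gene was represented by its probe set with the highest mean log2 signal, as the rule for the listed genes states. Folds of 1.2, 1.5 and 2 describe sizes, and no p-value is given.

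The listed genes, the functional groups, the partners and the markers were chosen with earlier results of these data known. Named in the text are all listed genes, PRAME, the 5 highest and 5 lowest other genes of the region above the filter, 3 genes next to each end, partners beside their gene and the markers. SPACA9, NUP214, TNC, SPOUT1, KYAT1, NTMT1, KLF9 and APBA1 were named after their values were seen. The alternatives were no centering, quantile normalization, a subtracted loess trend (span 0.4), an offset of 64, filters at the median and at the 75th percentile of the signal, the median over probe sets, and leaving out probe sets named _s_at, _x_at or _a_at. The scripts were tested on simulated data with known shifts. They ran in Python 3.11.15 with pandas 2.3.3, numpy 2.4.6, matplotlib 3.10.9 and statsmodels 0.14.6.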

Additional observations from a re-analysis of the deposited data

How the results depend on the processing

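No paired analysis was possible because each condition has 1 array. Under 8 alternatives the median log2 ratio of the genes of 9q33-q34 ranged from 0.13 to 0.21, and that of the other genes of the region from 0.22 to 0.34. That of all genes ranged from -0.059 to 0.12, so the distance from all genes varied. Without centering the genes of 9q33-q34 had 0.20 and all genes 0.12, and with quantile normalization they had 0.21 and 0.025. The split at FUBP3 and the alternatives for it and for the partners were chosen after seeing the data. The median ranged from 0.28 to 0.35 before FUBP3, from -0.18 to -0.072 from FUBP3 on, and from -0.079 to 0.015 for the partners, above 0 only with the median over probe sets. The number of genes at least 1.5-fold higher was 5 (9.80%, and 20.6% of all genes). It was 3 with an offset of 64 (5.88%, and 5.23% of all genes), 3 of 31 with the filter at the 75th percentile (9.68%, and 2.49% of all genes) and 3 with the median over probe sets (5.88%, and 20.8% of all genes). With the filter at the 75th percentile, which leaves fewer genes, 23 genes in all (41.6% of all genes) and 20 of 23 before FUBP3 were above 0, compared with 36 and 32. From FUBP3 on 4 genes were above 0, and without the probe sets ending in _s_at, _x_at and _a_at 2 of 10 were.

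The sign was the same in every setting that gave a value for 30 genes above 0, of which 29 lay before FUBP3. The same held for 9 genes below 0, of which 5 lay from FUBP3 on. Signs over the settings were not counted over all genes, so how unusual these counts are cannot be read. Every setting used the same 2 arrays. Both filter settings leave the value of a kept gene unchanged, so the sign could not differ there. ASS1 had no value without the probe sets ending in _s_at, _x_at and _a_at. For 12 genes the sign depended on the setting. With the median over probe sets FUBP3 had 0.13 and DDX31 0.11, and CRAT had -1.17. Without the probe sets of those endings GAPVD1 had -1.71, from the set below the filter. Precision is limited by the number of arrays and, for ENG, by signals below the filter.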
